A study of Mus musculus with 40 samples.

Results

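Mouse embryonic stem cells homozygous for the mutation GLP 3A were compared with wild-type cells after both had been treated with all-trans retinoic acid (RA). The 4 libraries were chosen by their labels, 2 of RA-treated GLP 3A and 2 of RA-treated wild-type cells, out of 40 samples in the series. The cells had a mixed C57BL/6 background, and the mutation is in GLP, the H3K9 methyltransferase encoded by Ehmt1. Per the labels' protocols the cells were grown on feeders with serum and LIF, passaged without feeders in 2i medium, and then given 1 uM RA while LIF was withdrawn, so the effect of RA cannot be told apart from that of losing LIF. The untreated libraries of the same genotypes, 2 each, are used to set the spread and for comparison. The sources used here do not give the length of RA treatment or whether each genotype is 1 clone.

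GLP and its partner G9a place mono- and dimethylation on lysine 9 of histone H3, a mark of silent chromatin, and GLP also binds that mark. RA acts through nuclear receptors that sit on DNA, raises Hox and RA-breakdown genes, and drives stem cells out of pluripotency towards neural, mesodermal and extraembryonic endoderm fates. BMP, Wnt, Hedgehog, FGF and IGF signals then help to set which of these fates a cell takes.

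The values are RPKM, reads scaled by gene length and library size. RPKM summed to between 509341 and 554854 in the 4 RA-treated libraries, and 12067 to 12369 genes reached 1 RPKM. Read counts are not part of the files. The spacing of the lowest values put replicate 2 at roughly 0.463 (wild type) and 0.409 (GLP 3A) of the depth of wild-type replicate 1, and GLP 3A replicate 1 at 1.04. The labels do not tell whether replicates were separate cultures, and a p-value here reflects the spread among these libraries, which may be technical. In these bulk samples, fewer cells of a type and less RNA per cell cannot be told apart. The replicate 2 libraries of all 4 groups stood apart in 39 genes that were at least 4-fold higher there than in replicate 1, nearly all made by liver. Albumin (Alb) was at 1.06 and 177 RPKM in the RA-treated wild-type libraries and at 2.65 and 520 in GLP 3A. Of the 39 genes 0 were called. Picked for a gap between replicates, they have a wide spread and could hardly be called, so this 0 does not bear on other genes. Without the 39 genes 1438 genes were called in place of 1401 (10.6% of those tested).

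Stem cell markers were far lower with RA in both genotypes, with 5 of them summing to 56.9 to 80.6 RPKM with RA against 1752 to 2273 untreated. The 12 feeder fibroblast markers summed to 101 and 113 RPKM in RA-treated wild type and to 82.4 and 125 in GLP 3A, against 4.45 to 6.32 without RA. Their part in the results was not tested. Ehmt1 (chromosome 2, 24646293 to 24775110 in mm9) was at 24.4 and 23.5 RPKM in wild type and 12.96 and 13.9 in GLP 3A, a log2 difference of -0.79 ± 0.07. Here and below, log2 differences are GLP 3A minus wild type on log2(RPKM + 1), which understates changes of low genes. They are given with the moderated standard error from limma, for means of 2 libraries per genotype with a spread estimated from all 8 libraries. The p-values are adjusted over all 13198 genes tested.

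With RA, 700 genes were called higher in GLP 3A (5.3% of those tested, adjusted p under 0.05) and 701 lower (5.31%). The shares were unlike between chromosomes. On chromosome 1, 212 of 710 genes were lower (29.9%), with a median log2 difference of -0.31. On chromosome 11, 201 of 1114 were higher (18.0%), with a median of 0.24. Medians on the 17 other autosomes lay between -0.06 and 0.00. Outside these chromosomes 963 genes were called (8.47%), 487 higher (4.28%) and 476 lower (4.18%), and these 2 shares are the background for the gene groups below. A further base for comparison is the median of all genes outside, -0.02. A gene that reached 1 RPKM only in the 2 RA-treated libraries of 1 genotype was tested, but could only be higher in that genotype. Such genes are counted in the groups and in the background.

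These calls use a spread shared by all 8 libraries. The median log2 gap between replicates was 0.145 (wild type) and 0.181 (GLP 3A) with RA, against 0.082 and 0.077 untreated. The shared spread, and the standard errors from it, can thus be too small for RA-treated libraries, above all for genes near 0 RPKM untreated. With the 4 RA-treated libraries alone, 24 genes were called in all and 20 outside chromosomes 1 and 11, among them Hand2, Cyct, Fmr1nb, Rpl39l and Ufsp2. Of the 963, 105 were called in all 8 fits that left out 1 library (0.923% of the genes tested there). Called genes outside numbered 200 to 231 without 1 of the untreated libraries, 215 and 210 without replicate 1 or 2 of RA-treated wild type, 498 without the first RA-treated GLP 3A library and 1820 without the second. Most gene groups below are given with the range of their count over the 8 fits.

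**Figure D1:**
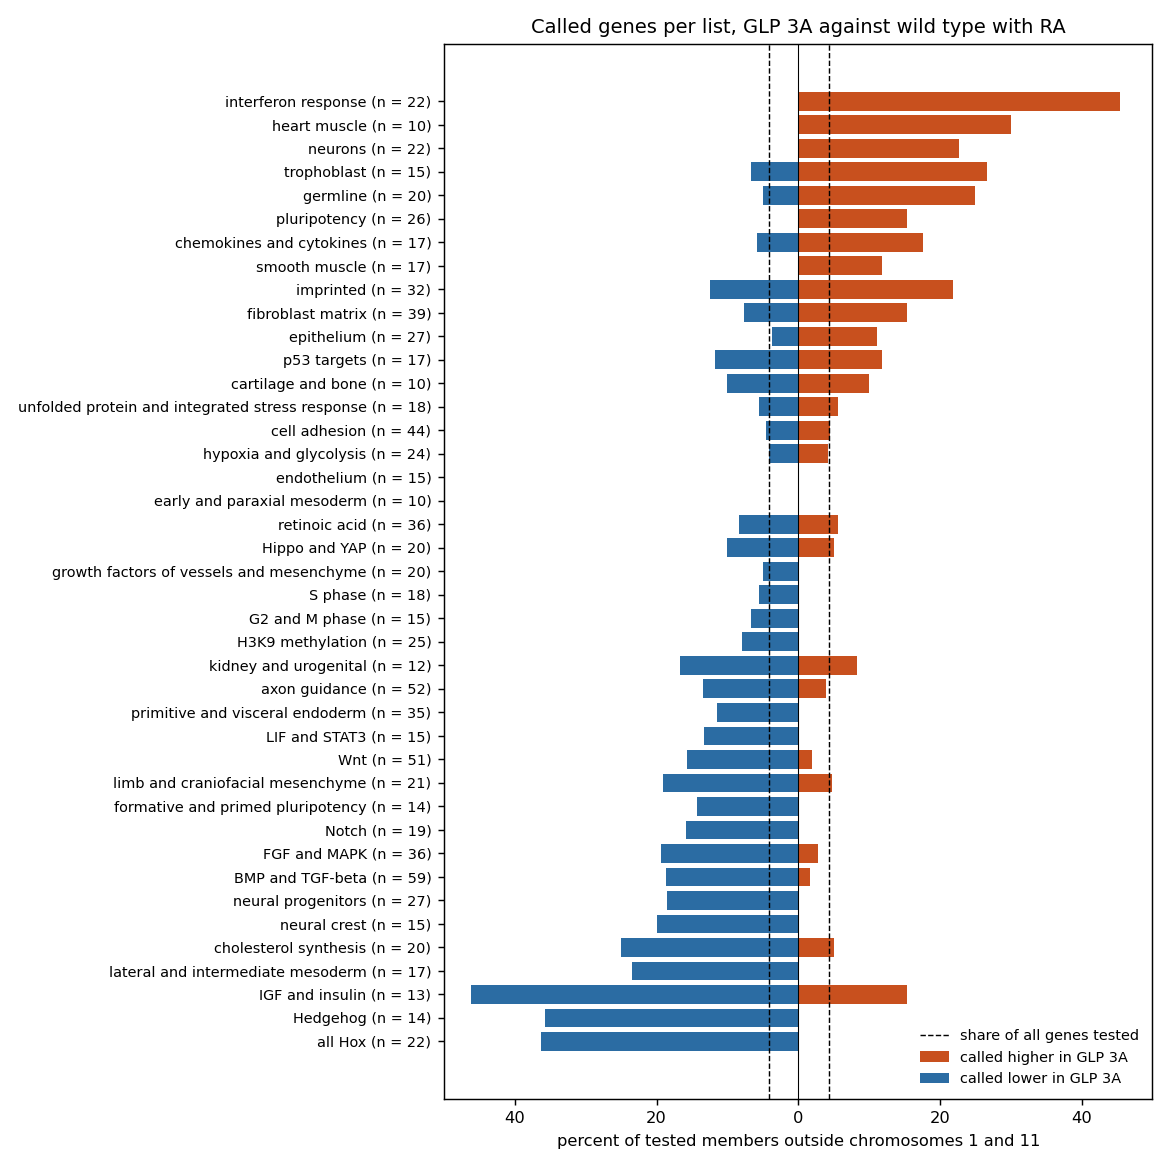
Share of tested members called higher (orange, right) and lower (blue, left) in GLP 3A with RA, for 41 gene lists with 10 or more tested members outside chromosomes 1 and 11. The x axis is the percent of members, dashed lines are the shares of all genes tested outside these chromosomes (4.28% higher, 4.18% lower), and n is the number of members tested. Hox, Hedgehog and IGF lists reach furthest to the lower side and the interferon list furthest to the higher side.

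The classical RA targets Cyp26a1 and Rarb were not called between the genotypes. Cyp26a1, the enzyme that breaks RA down, was at 218 and 125 RPKM in wild type and 185 and 126 in GLP 3A (log2 difference -0.12 ± 0.30). Rarb, the RA receptor that RA itself raises, was at 18.9 and 21.4 against 15.3 and 18.8 (-0.24 ± 0.13). The libraries of the genotypes overlapped for Cyp26a1, and for Rarb the highest GLP 3A library lay just under the lowest of wild type. Both genes have a direct repeat of the RA receptor binding site, the classical RA response element with 5 bases between its arms, within 250 bases before the start. The element occurs in 0.0883% of 32851 RefSeq promoter windows (GRCm38.p6, both strands). The windows are shown to place it, in capitals:
Cyp26a1, chr19:37697558-37697807, plus strand: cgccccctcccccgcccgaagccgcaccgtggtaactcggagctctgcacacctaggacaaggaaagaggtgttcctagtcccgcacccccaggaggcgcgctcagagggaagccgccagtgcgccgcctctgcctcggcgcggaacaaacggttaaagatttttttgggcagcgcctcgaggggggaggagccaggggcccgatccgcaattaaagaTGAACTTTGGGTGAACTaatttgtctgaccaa
Rarb, chr14:16575477-16575726, minus strand: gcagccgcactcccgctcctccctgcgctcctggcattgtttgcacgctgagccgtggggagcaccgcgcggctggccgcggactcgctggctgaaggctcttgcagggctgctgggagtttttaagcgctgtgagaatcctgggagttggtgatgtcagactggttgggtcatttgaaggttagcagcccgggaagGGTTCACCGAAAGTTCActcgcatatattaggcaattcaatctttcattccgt
In Cyp26a1 the element lies 32 to 16 bases before the start and reads on the opposite strand. In Rarb it lies 53 to 37 bases before the start.

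Other parts of the retinoid pathway did differ. Crabp1, a cytosolic RA-binding protein, was at 183 and 155 RPKM in wild type, against 10.7 and 28.5 in GLP 3A cells, and fell by 3.19 ± 0.39 on the log2 scale (adjusted p = 0.0112). Both GLP 3A libraries were far below both of wild type. Fabp5, a carrier that can hand RA to another nuclear receptor, fell from 41.4 and 59.1 to 18.8 and 22.2 RPKM (-1.24 ± 0.18). Rdh10, which makes retinal from retinol, fell too (-1.35 ± 0.10) but lies on chromosome 1. Of 15 tested genes for making, breaking down, taking up or binding RA, 0 were higher and 3 lower (2 to 4 lower over the 8 fits). Crabp2, the carrier that brings RA to its receptors, was at 369.98 and 439.6 against 147 and 355 and was not called (-0.82 ± 0.37). Stra6, the retinol uptake receptor, differed by 0.13 ± 0.11. Rbp4 and Ttr, in the same list, belong to the liver genes that are high in replicate 2.

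Among 20 tested RA target genes 3 were higher and 1 lower. Stra8, the gene that RA turns on at entry into meiosis, rose from 29.3 and 24.3 RPKM to 118 and 69.2 (1.72 ± 0.24, adjusted p = 0.0147). Both GLP 3A libraries were at least 2-fold above both of wild type. Zfp703 rose by 0.45 ± 0.09, and Plat, which encodes tissue plasminogen activator, fell (-0.56 ± 0.13). The median of these 20 genes was -0.12. Higher calls among them numbered 1 to 6 over the 8 fits and lower ones 0 to 6.

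Hox genes give cells their position along the body axis, and those called lower lay mostly towards the posterior end. Of 22 Hox genes tested outside chromosome 11, 0 were called higher and 8 lower. Hoxc9 was at 17.5 and 23.4 RPKM in wild type, against 4.58 and 7.84 in GLP 3A cells (-1.60 ± 0.23, adjusted p = 0.017). Hoxa9 went from 3.23 and 2.75 to 0.592 and 0.464 (-1.38 ± 0.11), and Hoxd9 from 4.56 and 5.53 to 1.84 and 1.42 (-1.20 ± 0.13). In each of the 3 genes the genotypes were well apart. Hoxa9, near 0 RPKM untreated, reached the 1 RPKM needed for testing only in RA-treated wild type. It could therefore only come out lower, and it is counted among the 8. Hoxa10 (-1.17 ± 0.10), Hoxc10 (-1.44 ± 0.21), Hoxc8 (-1.30 ± 0.31), Hoxd1 (-1.25 ± 0.23) and Hoxd4 (-1.02 ± 0.21), whose locus is shared with other symbols, made up the rest.

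By paralogue number, 5 of 9 tested genes of groups 9 to 13 fell, with a median of -1.17. These 5 calls became 2 without RA-treated wild-type replicate 1 and 1 without replicate 2, with medians of -0.60 and -0.68. Of 8 genes of groups 6 to 8, 1 fell, with a median of -0.79, and of 15 genes of groups 1 to 5, 2 fell and 1 rose, with a median of -0.08. The gene that rose was Hoxb1, which marks rhombomere 4 of the hindbrain and is a direct RA target. It went from 21.3 and 18.8 RPKM to 36.7 and 37.6 (0.86 ± 0.09), and it lies on chromosome 11 with the whole B cluster, where the other 9 tested genes were not called. Hoxc6 had a large difference without a call, from 12.6 and 25.1 to 2.84 and 10.6 RPKM (-1.50 ± 0.53). Before RA, 0 of the 32 tested Hox genes were called (7.52% of all genes were called higher there and 4.15% lower), and their median was -0.02. A gene could be tested on its RA-treated levels alone, and one near 0 RPKM untreated could hardly be called there. The untreated count therefore cannot show when the Hox differences arose. Without 1 RA-treated library the median of cluster A lay between -0.66 and -0.07. That of cluster C lay between -1.34 and -0.75 and that of cluster D between -1.17 and -0.64. The lower calls in clusters A and C were all lost in more than 1 of the 8 fits that left out 1 library. Hoxd9 and Hoxb1 were called in all 8.

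**Figure D2:**
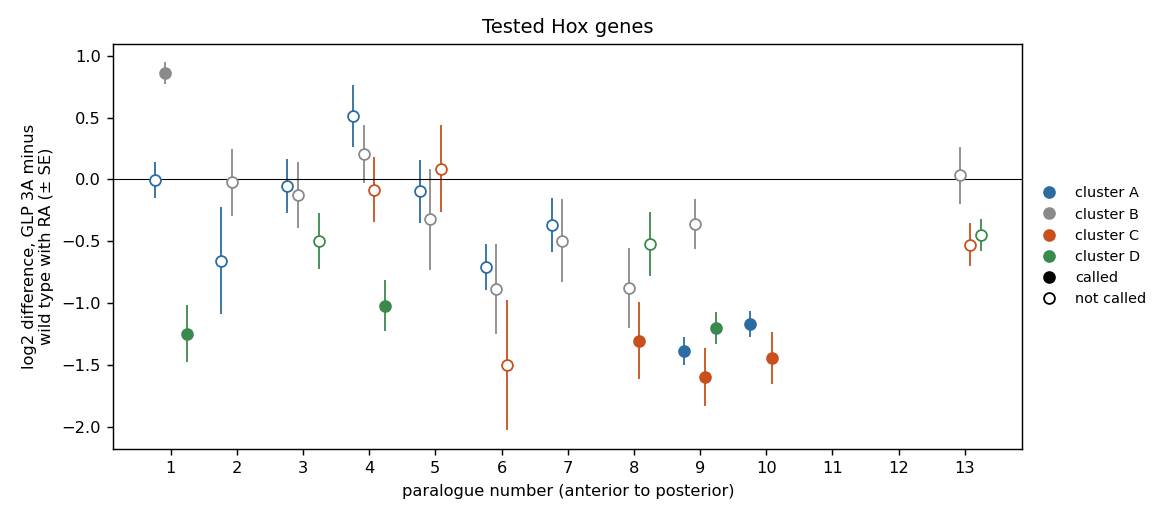
Log2 difference, GLP 3A minus wild type with RA, of the 32 tested Hox genes by paralogue number, coloured by cluster, with the moderated standard error as bars. Filled points were called and open points were not. Called decreases gather at paralogues 8 to 10, beside Hoxd1 and Hoxd4, and Hoxb1 is the called increase.

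Several factors of limb, craniofacial and lateral mesoderm were lower in GLP 3A. Hand2 (chromosome 8, 59799779 to 59803314), a bHLH factor of limb bud, branchial arch and heart mesoderm, was at 13.1 and 12.9 RPKM in wild type, against 1.33 and 1.71 in GLP 3A cells. It fell by 2.48 ± 0.11 on the log2 scale (adjusted p = 3.15e-04, and 0.0181 with the RA-treated libraries alone). Msx1, a homeobox factor downstream of BMP, was at 45.5 and 46.6 against 10.6 and 14.8 (-1.80 ± 0.15, adjusted p = 0.00344), with a locus shared with another symbol. Wild-type replicates of both genes were nearly equal, and both calls held in all 8 fits that left out 1 library. The homeobox genes Alx1 (-0.72 ± 0.13), of the frontonasal mesenchyme, Pax2 (-0.59 ± 0.14), of kidney and hindbrain border, and the zinc finger gene Gata3 (-0.67 ± 0.12) also fell.

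Of 27 tested factors of limb and craniofacial mesenchyme 4 fell and 1 rose, and of 21 factors of lateral and intermediate mesoderm 5 fell and 0 rose. Hand2 is in both lists. The gene that rose was Nfix (0.74 ± 0.16). Twist1 (21.6 and 33.5 against 7.26 and 16.6 RPKM) and Bmp5 (2.87 and 5.98 against 0.755 and 1.73) did not overlap between genotypes but were not called. Lhx1 fell by 0.82 ± 0.10 but lies on chromosome 11. Lower calls in the mesenchyme list numbered 2 to 12 over the 8 fits and in the lateral mesoderm list 2 to 8, most without GLP 3A replicate 2.

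The receptor Pdgfra, made by mesenchyme and primitive endoderm, was at 10.9 and 8.65 RPKM against 2.71 and 3.41 (-1.40 ± 0.14, adjusted p = 0.00644). Col14a1, a fibril-associated collagen, fell from 5.4 and 6.05 to 0.272 and 0.848 (-2.13 ± 0.18), and Col2a1, the main collagen of cartilage, from 69.0 and 65.4 to 31.1 and 37.9 (-0.95 ± 0.10). Other matrix genes went the other way. Col6a1 (0.87 ± 0.11), the microfibril gene Mfap5 (1.05 ± 0.11), the protease inhibitor Timp1 (0.79 ± 0.12) and Nt5e (0.89 ± 0.14) rose. Of 47 tested fibroblast and matrix genes 8 rose and 3 fell (2 to 12 and 1 to 5 over the 8 fits), and their median was 0.06. Col1a1, a feeder marker, rose by 0.53 ± 0.11 on chromosome 11, and the feeder sums above overlapped between genotypes.

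Most BMP pathway genes that were called were lower. Bmp4, a ligand, was at 55.0 and 80.1 RPKM in wild type and 13.9 and 32.7 in GLP 3A (-1.59 ± 0.37, adjusted p = 0.0484), at a locus shared with another symbol. Of 15 tested BMP and TGF-beta target genes 0 rose and 5 fell, with a median of -0.67. Id3, an inhibitor of bHLH factors that BMP turns on, fell from 277 and 293 to 125 and 167 (-0.97 ± 0.14). Id4 (-1.15 ± 0.22) and Gata3 fell with it, as did Msx1, while Id2 (-0.96 ± 0.30) was not called. The genotypes did not overlap for any of these genes.

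Of 15 tested antagonists of the pathway 4 fell and 0 rose, and 4 had been called lower before RA. Smad6, the intracellular inhibitor that BMP itself raises, went from 23.8 and 25.9 RPKM to 11.4 and 12.8 (-0.98 ± 0.11), and Fst, which binds activins and BMPs, from 8.92 and 8.33 to 4.38 and 4.83 (-0.78 ± 0.08). Acvr2b, a type II receptor, fell by 1.04 ± 0.15. Of 19 ligands tested 1 rose and 1 fell, and of 18 receptors and transducers 1 rose and 1 fell. Outside chromosomes 1 and 11, 0 of 14 ligands rose and 1 fell. Lower calls numbered 2 to 8 among targets over the 8 fits, 1 to 4 among antagonists, 0 to 1 among receptors and transducers and 0 to 3 among ligands, which had 0 in 6 of the fits. Higher calls over all roles numbered 0 to 9. Fst was as low in untreated GLP 3A (-0.86), whereas Smad6 (-0.08) and Id4 (0.29) were not called there.

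Calls among neural progenitor genes were to the lower side, and those among structural genes of neurons to the higher side. Sox1, the earliest factor of the neural plate, was at 11.2 and 9.07 RPKM in wild type and 0.979 and 3.96 in GLP 3A (-1.82 ± 0.39, adjusted p = 0.0389), at a locus with another symbol. Zic1, of the neural plate border and dorsal neural tube, was at 6.14 and 7.33 against 1.01 and 2.02 (-1.65 ± 0.20, adjusted p = 0.0108). For both genes GLP 3A replicate 1 was the lowest of the 4 libraries. The RNA-binding stem cell marker Msi1 fell by 0.72 ± 0.17, and Pax6, of forebrain and ventral neural tube, was not called (17.4 and 20.5 against 7.26 and 13.6 RPKM).

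Of 32 tested neural progenitor genes 7 fell and 0 rose, with a median of -0.45. Of these, 5 lay outside chromosomes 1 and 11, and Pax3 (-1.38 ± 0.15) is on chromosome 1. The count ran from 0 without RA-treated wild-type replicate 2 to 18 without GLP 3A replicate 2. In neurons, 5 of 18 structural and synaptic genes rose and 0 fell. Stmn4, a regulator of microtubules, rose from 4.52 and 6.81 RPKM to 28.3 and 14.02 (1.68 ± 0.32), and Chga, of secretory granules, from 2.38 and 1.71 to 8.71 and 6.03 (1.45 ± 0.17). Gng3 (1.20 ± 0.19) and Rtn1 (0.70 ± 0.14) rose as well. This count was 1 in 6 of the 8 fits and 5 in the others, and 0 of 6 neuronal transcription factors rose.

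Of 20 tested neural crest genes 4 fell and 0 rose (1 to 7 over the 8 fits), Crabp1 and Msx1 among them. Tfap2a, a factor of the crest and surface ectoderm, fell by 0.58 ± 0.12, and its relative Tfap2b by 2.09 ± 0.49 on chromosome 1. Of 14 genes of the formative and primed epiblast, 2 fell and 0 rose (1 to 4 lower over the 8 fits), with a median of -0.19. Among them Zic2 was at 7.04 and 10.1 RPKM in wild type and fell to 2.38 and 4.68 (-1.11 ± 0.27, adjusted p = 0.0499). Zic2 had been higher in untreated GLP 3A (1.72). Gfra3, a GDNF-family receptor of sensory and sympathetic neurons, fell from 5.59 and 4.74 to 0.813 and 1.05 (-1.67 ± 0.12), and Lbh, a cofactor of limb bud and heart, from 23.7 and 17.3 to 3.19 and 5.81 (-1.99 ± 0.25).

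**Figure D3:**
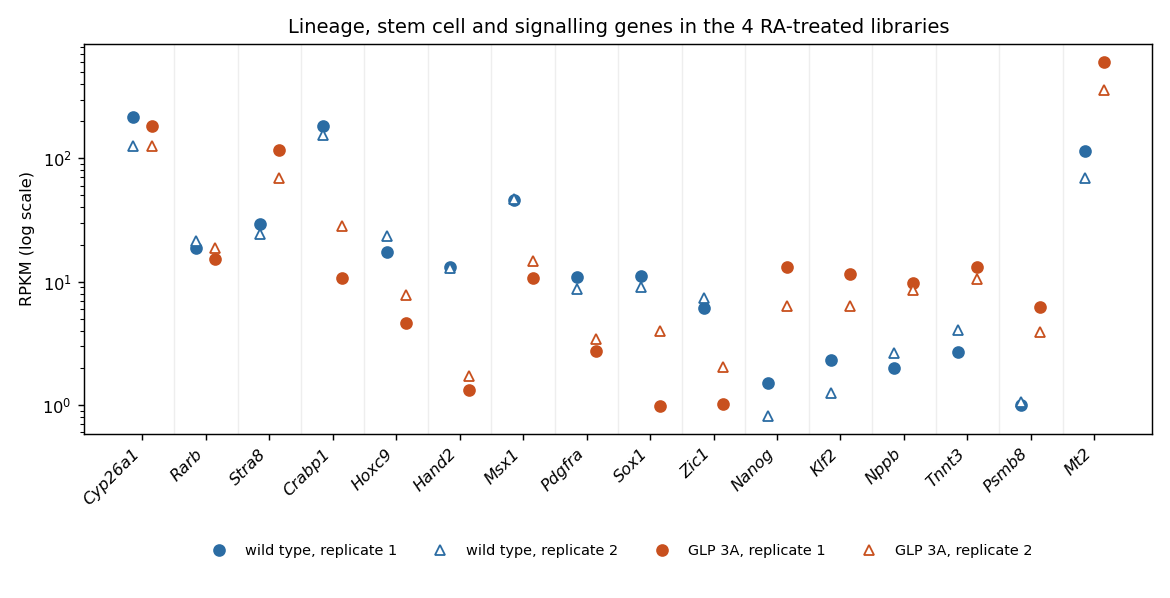
RPKM on a log axis of 16 genes in each of the 4 RA-treated libraries, wild type in blue and GLP 3A in orange, with replicate 1 as filled circles and replicate 2 as open triangles. Cyp26a1 overlaps between the genotypes, Crabp1, Hoxc9, Hand2, Msx1, Pdgfra, Sox1 and Zic1 lie lower in GLP 3A, and Stra8, Nanog, Klf2, Nppb, Tnnt3, Psmb8 and Mt2 lie higher.

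In Hedgehog signalling the members that fell were mostly at the cell surface. Of 15 tested genes 6 fell and 0 rose, with a median of -0.37, and 5 of the 6 lay outside chromosomes 1 and 11. Hhip, which binds the ligand, was at 4.58 and 4.17 RPKM in wild type and 1.78 and 1.65 in GLP 3A (-0.98 ± 0.10, adjusted p = 0.00609). The co-receptors Boc (11.6 and 11.4 against 3.74 and 7.22, -1.002 ± 0.24) and Cdon (33.2 and 32.6 against 13.8 and 21.8, -0.88 ± 0.20) fell. Gli2, the main activator, fell from 16.5 and 16.2 to 5.74 and 6.30 (-1.31 ± 0.08) on chromosome 1, and was as low before RA (-1.25). Wild-type replicates of all these genes lay close together. Lower calls numbered 2 to 8 over the 8 fits, and Hhip and Gli2 were called in each.

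Wnt ligands gave 0 calls among 15 tested, while 5 of 15 Wnt targets and transcription factors fell. Most of these 5 calls were lost in most of the 8 fits that left out 1 library. The median of the targets was -0.46, and -0.45 to -0.24 without 1 RA-treated library. That of the ligands was -0.12, and -0.29 to 0.24 in the same fits. Sp5, a direct Wnt target in stem cells and mesoderm, went from 18.1 and 26.7 RPKM to 9.67 and 11.3 (-1.01 ± 0.17). Nkd1, a feedback inhibitor (-1.03 ± 0.22), Myc (-0.86 ± 0.19) and Ccnd1, which drives the G1 phase (-0.72 ± 0.13), fell. Axin2, a common readout of the pathway on chromosome 11 and named here after its value was seen, was not called (-0.30 ± 0.10). Of 20 receptors and agonists 4 fell, among them the agonist Rspo3 (15.4 and 19.4 against 4.70 and 8.82, -1.29 ± 0.26), its receptor Lgr4 (-0.47 ± 0.10) and the Wnt receptor Ror1 (-0.66 ± 0.11). Over all 63 Wnt genes tested 10 fell and 1 rose, and lower calls numbered 1 to 18 over the 8 fits, 1 in 5 of them.

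Of 12 tested receptors of the FGF and MAPK list 4 fell and 1 rose, and lower calls were 1 in 6 of the 8 fits and 4 in the others. Of its 10 tested ligands 0 were called, with 0 to 2 lower over the 8 fits. Fgfr3 was at 4.80 and 4.69 RPKM in wild type and 1.39 and 2.44 in GLP 3A (-1.001 ± 0.19), and Fgfr2 at 27.2 in both wild-type libraries and 13.8 and 19.1 in GLP 3A (-0.71 ± 0.15). Egfr rose by 1.05 ± 0.20 on chromosome 11. Lifr, the receptor of the LIF signal that was withdrawn, fell from 7.12 and 5.72 to 2.79 and 2.47 (-1.03 ± 0.13) and Cntfr by 0.70 ± 0.13. Lif itself rose (1.01 ± 0.18) and is on chromosome 11. Of 20 tested genes of the LIF and STAT3 list 1 rose and 2 fell (0 to 1 and 1 to 3 over the 8 fits). In the Notch pathway Jag1, a ligand, fell from 3.25 and 3.37 to 1.19 and 1.63 (-0.84 ± 0.11), and 4 of 23 tested genes fell and 1 rose. Outside chromosomes 1 and 11, 3 of 19 fell and 0 rose. Over the 8 fits lower Notch calls ran from 0, without RA-treated wild-type replicate 2, to 8, and higher ones from 0 to 1.

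The IGF and insulin group had 6 of 13 tested members lower and 2 higher outside chromosomes 1 and 11. Igf2r, which clears IGF2 from the cell surface, was at 36.9 and 34.4 RPKM in wild type and 19.6 and 17.8 in GLP 3A (-0.89 ± 0.08, adjusted p = 0.00563), at a locus shared with other symbols. Igf2bp3, an RNA-binding protein of growth genes, fell from 53.3 and 50.8 to 23.8 and 32.7 (-0.87 ± 0.14), and the IGF1 receptor gene Igf1r by 0.44 ± 0.09. These 3 genes were named after their values were seen. Ins2, an imprinted insulin gene, was listed at 0 in each wild-type library, against 7.58 and 2.59 in GLP 3A. Igfbp5 (-2.54 ± 0.34) and Igfbp2 (-1.19 ± 0.09), which bind IGFs, fell on chromosome 1, and Grb10, an imprinted inhibitor of the receptors, fell on chromosome 11 (152 and 134 against 49.9 and 65.2 RPKM, -1.31 ± 0.18). Over all 21 tested members, lower calls numbered 3 to 11 over the 8 fits.

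Receptors and cues that guide axons and migrating cells followed, with 12 of 59 tested genes lower and 2 higher, 7 and 2 of them outside chromosomes 1 and 11. Robo2, a receptor for slits, fell from 2.98 and 2.18 RPKM to 0.976 and 0.920 (-0.87 ± 0.13), and the netrin receptor Unc5c from 1.57 and 1.78 to 0.312 and 0.608 (-0.88 ± 0.13). Both sit at the low end of expression. The chromosome 1 genes Nrp2 (-1.92 ± 0.22) and Epha4 (-1.31 ± 0.15) fell further. Lower calls numbered 2 to 20 over the 8 fits. The cadherin of kidney and neural crest, Cdh6, fell from 13.8 and 18.3 to 4.01 and 7.54 (-1.37 ± 0.26).

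Several stem cell genes were higher in RA-treated GLP 3A cells than in wild type. Nanog, a core pluripotency factor whose locus holds another symbol, was at 1.51 and 0.814 RPKM in RA-treated wild type, against 13.1 and 6.30 in GLP 3A cells (2.25 ± 0.31, adjusted p = 0.0146). Klf2, of the naive state, was at 2.33 and 1.26 against 11.6 and 6.32 (1.81 ± 0.28), and Tdgf1, a co-receptor of Nodal, at 0.552 and 0.674 against 7.23 and 2.81 (1.80 ± 0.32). GLP 3A replicate 1 was the highest library for each of them. Dppa3, of the naive state and the germline, rose as well (1.99 ± 0.24) and had been higher before RA (2.03).

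Of 32 tested pluripotency genes 6 rose and 0 fell, 4 of the 6 outside chromosomes 1 and 11, and their median was 0.41. Pou5f1, the master factor of the state, was at 14.5 and 2.20 RPKM in wild type and 27.7 and 10.7 in GLP 3A. Its libraries overlapped and it was not called (1.38 ± 0.74). Zfp42 (9.31 and 6.32 against 13.5 and 6.89 RPKM) was not called either, and it had been lower in untreated GLP 3A (-2.20). The number of higher calls was 1 to 2 in 6 of the 8 fits, 6 without the first RA-treated GLP 3A library and 15 without the second.

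Some germline, trophoblast and epithelial genes rose, in smaller groups. Cyct, the testis form of cytochrome c, was at 3.61 and 4.53 RPKM in wild type and 40.2 and 61.0 in GLP 3A (3.32 ± 0.20), much as before RA (3.62). Rec8, the meiotic cohesin, rose from 48.8 and 49.0 to 71.9 and 74.2 (0.57 ± 0.08). Of 22 tested germline genes 5 rose and 1 fell (1 to 8 higher over the 8 fits). Fmr1nb, a testis gene of the X chromosome (0.570 and 0.844 against 14.4 and 9.67 RPKM), and the RNA export factor Nxf3 (2.60 ± 0.20) were also among the 15 largest increases.

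Of 16 trophoblast genes 4 rose and 1, Gata3, fell. In most of the 8 fits that left out 1 library no increase was called. The list median lay between 0.28 and 0.77 without 1 RA-treated library. The 4 include Rhox9, a placental homeobox gene with near-identical neighbours (6.39 and 3.72 against 31.9 and 13.9 RPKM, 1.91 ± 0.38), and Tfap2c (1.06 ± 0.23). Phlda2, an imprinted brake on placental growth, rose from 32.9 and 26.4 to 68.0 and 49.2 (0.95 ± 0.18). Of 6 tested keratins 4 rose and 0 fell (1 higher without either RA-treated wild-type library, and up to 6 without GLP 3A replicate 2), of which Krt7 lies outside chromosome 11 (28.9 and 26.7 against 81.6 and 56.9, 1.27 ± 0.17). Krt20 (1.69 ± 0.15), Krt19 (0.96 ± 0.20) and Krt17 (2.17 ± 0.29) are on chromosome 11. Krt8, the keratin of simple epithelia, was at 381 and 350.06 against 749.6 and 433 and was not called. Cldn4, a tight junction gene, rose (1.21 ± 0.25). Of 27 tested adhesion, junction and other epithelial genes 3 rose and 1 fell, with a median of 0.31. Outside chromosomes 1 and 11, 2 of 24 rose and 1 fell, against 4.28% higher and 4.18% lower of all genes there.

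Some heart and skeletal muscle genes were higher, at low levels. The natriuretic peptide gene Nppb rose from 1.97 and 2.63 RPKM to 9.68 and 8.53 (1.62 ± 0.14, adjusted p = 0.00445), and Nppa from 0.259 and 0.596 to 4.45 and 2.73 (1.67 ± 0.22). Tnnt3, a troponin of fast muscle at a locus with other symbols, rose from 2.67 and 4.02 to 13.2 and 10.5 (1.57 ± 0.21). Mylpf (1.97 ± 0.44) and Tnni2 (1.56 ± 0.24), of fast muscle too, rose. Of 12 tested heart muscle genes 5 rose and 0 fell, with Myl4 (2.00 ± 0.14) and Myl7 (1.34 ± 0.18) on chromosome 11. Outside it 3 of 10 heart genes rose, with a median of -0.03. Of 7 skeletal muscle genes 4 rose and 0 fell.

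The heart factor Nkx2-5 was not called (7.38 and 9.41 against 6.22 and 6.02 RPKM). Acta2, the smooth muscle actin, was high in all 4 libraries, at 226 and 416 against 759 and 459, and was not called (0.94 ± 0.35). Among 21 smooth muscle genes 2 rose and 0 fell. Higher calls numbered 2 to 4 for heart muscle, 1 to 5 for skeletal muscle and 0 to 6 for smooth muscle over the 8 fits.

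Genes of the interferon response and of antigen presentation were higher in GLP 3A. Of 22 tested members outside chromosomes 1 and 11, 10 rose and 0 fell, against a background of 4.28% higher. Psmb8, a catalytic subunit of the immunoproteasome, rose from 1.01 and 1.05 RPKM to 6.28 and 3.90 (1.56 ± 0.18, adjusted p = 0.0102). Gbp2, an interferon-induced GTPase, rose from 4.34 and 6.32 to 19.8 and 13.6 (1.48 ± 0.21), and Tap2, which carries peptides to class I molecules, from 2.41 and 2.17 to 8.13 and 5.09 (1.18 ± 0.21). In each the genotypes were apart. The chemokine gene Cxcl10, at a locus with 2 other symbols in the files, was at 2.31 and 1.54 against 20.6 and 5.93 (2.08 ± 0.48, adjusted p = 0.0473). Bst2, a membrane protein that tethers virus particles and was named after its value was seen, rose from 24.05 and 19.6 to 54.7 and 39.9 (1.07 ± 0.17).

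Higher calls in the whole interferon list of 26 genes numbered 11, and most of them were lost in most of the 8 fits that left out 1 library. Without 1 RA-treated library the list median lay between 0.46 and 0.72. The median was 0.69 between the replicate 1 libraries and 0.59 between the replicate 2 libraries, which no label pairs. Isg15, a ubiquitin-like modifier (0.589 and 0.297 against 4.33 and 1.25 RPKM), was not called, nor was the transcription factor Stat2, named after its value was seen. The untreated cells had 6 members called higher and 2 lower. To look at what the promoters share, the interferon response motif GAAANNGAAA was searched on both strands of the 250 bases before the start. It occurred in 2.98% of all promoter windows. Of the 23 list members with a window 8 held it. Of the 10 members called higher with a window 3 held it, and these are shown:
Cxcl10, chr5:92348890-92349139, minus strand: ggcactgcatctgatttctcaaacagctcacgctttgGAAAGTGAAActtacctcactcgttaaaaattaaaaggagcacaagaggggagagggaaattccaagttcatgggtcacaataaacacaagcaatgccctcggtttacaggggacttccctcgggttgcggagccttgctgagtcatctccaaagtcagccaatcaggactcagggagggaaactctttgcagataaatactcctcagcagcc
Gbp2, chr3:142620413-142620662, plus strand: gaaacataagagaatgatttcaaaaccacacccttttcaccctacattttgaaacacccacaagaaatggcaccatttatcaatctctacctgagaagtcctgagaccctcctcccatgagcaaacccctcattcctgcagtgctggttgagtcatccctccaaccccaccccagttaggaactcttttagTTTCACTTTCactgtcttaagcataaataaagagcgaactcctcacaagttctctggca
Bst2, chr8:71537473-71537722, minus strand: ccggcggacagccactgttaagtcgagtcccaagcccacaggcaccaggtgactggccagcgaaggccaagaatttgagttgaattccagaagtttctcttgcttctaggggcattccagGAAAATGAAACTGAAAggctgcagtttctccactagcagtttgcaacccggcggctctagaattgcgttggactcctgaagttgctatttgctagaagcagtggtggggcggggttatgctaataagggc
The capitals mark the motif, which in Bst2 is 2 overlapping matches and in Gbp2 reads on the opposite strand. Among all tested genes with a window, 258 held the motif, of which 24 were called higher and 16 lower. Over all genes tested, with or without a window, 5.3% were called higher and 5.31% lower. A link between the motif and the calls was not tested.

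Metal-binding and detoxifying genes were among the largest increases. Mt2, a metallothionein that binds zinc and copper, rose from 114 and 68.9 RPKM to 609 and 359 (2.39 ± 0.31, adjusted p = 0.0126), and its relative Mt4 from 1.11 and 1.60 to 13.8 and 10.02 (2.45 ± 0.28). The glutathione transferases Gstm6 (0.885 and 0.513 against 7.72 and 11.8) and Gstp2 (2.25 and 0.900 against 15.01 and 7.57), which have near-identical relatives, rose likewise. All 4 had already been higher in untreated GLP 3A, by 1.06 to 3.07 on the log2 scale. Aqp3, a water and glycerol channel (0.922 and 0.386 against 9.45 and 3.65), and Spp1, the secreted protein osteopontin (6.25 and 4.26 against 44.4 and 14.1), had not been called before RA.

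Among the largest decreases, Il3ra, a cytokine receptor chain (8.21 and 7.91 against 0.892 and 0.227 RPKM), and Ufsp2, a protease of UFM1 (8.71 and 8.70 against 2.12 and 1.86), were lower in untreated GLP 3A too, by 2.06 and 1.64 on the log2 scale. Both calls held in all 8 fits that left out 1 library. The pseudogene Atp6v0c-ps2, at a locus with another symbol, was at 170.04 and 110.3 RPKM in wild type, against 0.0195 and 0.112 in GLP 3A cells. Of Y chromosome genes 4 of 4 tested rose, such as Ddx3y (1.81 and 1.44 against 12.05 and 13.5), by as much as before RA (log2 difference 2.39 in both states).

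RA also induces extraembryonic endoderm, and several of its main genes differed widely between replicates. Gata4 was at 20.04 and 2.90 RPKM in wild type and 8.32 and 2.13 in GLP 3A. Gata6 was at 15.7 and 9.97 against 14.9 and 9.10. Both factors overlapped between genotypes. GLP 3A was the lower within each replicate number, but no label says that the numbers pair the libraries. Lama1, a laminin of the endoderm's basement membrane, was at 99.3 and 17.2 against 24.4 and 8.95, lower within each number too, and was not called. Of 41 tested genes 5 fell and 0 rose, with a median of -0.10. They include Foxa1 (9.87 and 7.17 against 4.02 and 4.32, -0.87 ± 0.15), a pioneer factor of endoderm, and Sox17 (-1.27 ± 0.27) on chromosome 1. Lower calls numbered 2 to 7 over the 8 fits. Among 12 hepatic and gut genes 0 were called, and most of them are genes of the liver set that is high in replicate 2. The endoderm list of 41 also holds Alb, Ttr, Apoa1, Rbp4, Fgb and Fgg of this set. Its count and median are therefore not of endoderm alone. Hbb-y, an embryonic globin, rose from 4.57 and 2.49 to 10.98 and 15.1 (1.66 ± 0.24).

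Of 26 tested genes for H3K9 methylation and its removal, Ehmt1 and the demethylase Kdm3a (-0.35 ± 0.08) fell and 0 rose (1 to 4 lower over the 8 fits). Ehmt2, which encodes G9a, was at 40.9 and 32.3 RPKM against 30.2 and 28.4 and was not called. Of 33 imprinted genes, 7 rose and 5 fell. Zim1, a maternally expressed zinc finger gene, fell from 4.65 and 4.30 to 1.06 and 1.16 (-1.38 ± 0.10), and Slc22a18 rose from 3.41 and 4.32 to 7.92 and 11.5 (1.13 ± 0.19). Of 21 genes of cholesterol synthesis 6 fell and 1 rose, such as Idi1 (39.6 and 43.4 against 29.2 and 25.3, -0.59 ± 0.09), while 5 had been called higher before RA. Over the 8 fits lower calls numbered 2 to 10 and higher ones 0 to 6 for imprinted genes, and lower ones 0 to 6 for cholesterol synthesis. In the S phase list 2 of 21 genes fell, and 1 of 18 outside chromosomes 1 and 11. In the G2 and M phase list 2 of 20 rose and 2 fell. Outside these chromosomes 0 of 15 rose and 1 fell. Most of the calls in these 2 lists were lost in most of the 8 fits that left out 1 library.

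Most genes called with RA outside chromosomes 1 and 11 were not called in untreated cells. A call in 1 state alone does not show that the genotype difference changed, and the interaction test below was passed by 98 of the 963. Genes near 0 RPKM untreated, as Hoxa9 was, could hardly be called in that state. Of the 963 genes, 266 were also called with the same sign without RA (27.62% of the RA list and 23.64% of the 1125 called untreated, where 6.58% of genes outside were higher and 3.31% lower), 30 with the opposite sign, and 667 were not called there. The difference between the genotype differences with and without RA was tested as an interaction, and 238 genes passed (1.8% of those tested), 98 of them among the 963. Hand2 was near 0 difference without RA (0.03), as were Msx1 (0.28), Col14a1 (0.11), Hoxa9 (-0.02) and Pdgfra (-0.05), and each differed between the states. For Crabp1 (adjusted p = 0.058), Hoxc9 (0.073), Stra8 (0.073), Nanog (0.085) and Sox1 (0.33), the interaction was not called.

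**Figure D4:**
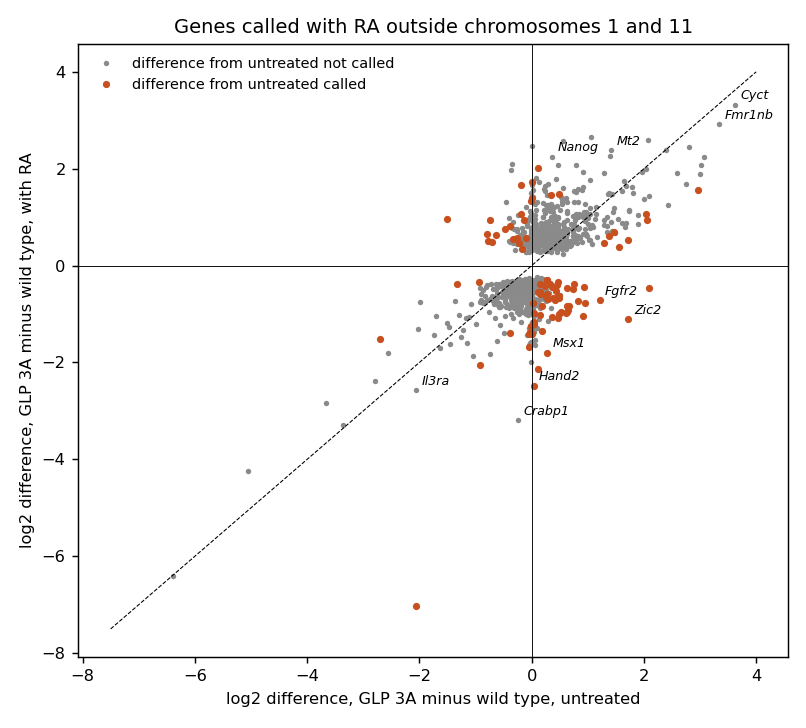
Log2 difference, GLP 3A minus wild type, with RA (y axis) against untreated cells (x axis), for 953 genes called with RA outside chromosomes 1 and 11, short RNA genes left out. The 92 orange points had a called interaction, and the dashed line marks equal differences. Hand2, Msx1 and Crabp1 lie near 0 on the x axis, and Cyct, Fmr1nb and Il3ra lie near the line.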

How the data were processed

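RNA from wild-type and GLP 3A cells, untreated and with RA, was measured in 8 libraries, 2 per group. Groups were taken from the labels. The authors deposited RPKM for each library in its own table, which pairs every symbol with a locus according to its header. Bowtie 0.12.7, SAMtools, TopHat and Cufflinks and build mm9 are named in the submitters' processing notes. Neither the strand protocol nor the counting of overlapping genes is given in the sources used here.

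Tables were joined by symbol. Of 23240 symbols, 23228 were in all files, and 4172 share a locus with another symbol, so their values are uncertain. On log2(RPKM + 1), limma 3.58.1 (R 4.3.3) fitted 4 group means to 8 libraries, with variances moderated by empirical Bayes along an intensity trend. Two-sided p-values were adjusted (Benjamini-Hochberg) across the 13198 genes that reached 1 RPKM in 2 or more libraries, and adjusted p under 0.05 made a call. Depth relative to 1 library was estimated from the spacing of values at or under 0.15 RPKM, and it limits precision for low genes.

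The members and the 49 gene lists were chosen with earlier results of these data known, so lists are described by counts and medians without a test. Genes were named by rule: the 15 largest called increases and decreases outside chromosomes 1 and 11 without overlap, without Gm, Rik, identifier and short RNA names, then per list and role up to 4 called and 2 uncalled members of largest difference, and a fixed set of 16 genes. Not all eligible genes are reported. Promoter windows are from RefSeq (GRCm38.p6), matched by symbol for 9258 tested genes. Alternatives were pseudocounts of 0.1 and 0.5, no low-value filter or one at 5 RPKM, quantile and median-of-ratios scaling, no trend, robust empirical Bayes, RA libraries alone, a replicate block, a 2-fold threshold, a refit without chromosomes 1 and 11, and each library left out. Chosen later, with the values known, were treating suspect zeros as missing, tests without short RNA genes, list counts by library left out, and removal of genes high in replicate 2.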

Additional observations from a re-analysis of the deposited data

Results flagged for a closer look

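The results here are named genes whose genotype difference with RA differed from that in untreated cells, by the interaction test of limma at an adjusted p under 0.05. Each value is the log2 difference with RA minus the log2 difference without RA. These genes were chosen among 148 named genes, many of them named for a large called difference with RA. Of all genes tested 1.8% passed, which is therefore not a like base for them. Where the untreated difference is near 0, the value mostly repeats the difference with RA that led to the naming. For Hand2 the 2 values are -2.52 and -2.48.

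Several genes of mesenchyme and mesoderm were not called before RA and were lower after it. The value was -2.52 for Hand2 (adjusted p = 0.00307), -2.07 for Msx1, -2.24 for Col14a1, -1.36 for Pdgfra, -0.86 for Lhx1 and -1.16 for Gata3, whose untreated difference was 0.49. For Col2a1, which had been higher in untreated GLP 3A, it was -1.47.

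Hox genes gave -1.37 for Hoxa9, -1.20 for Hoxa10, -1.25 for Hoxd9 and 0.87 for Hoxb1, with untreated levels near 0 in both genotypes. Neural and neural crest genes gave -1.42 for Pax3, -1.63 for Gfra3, -2.26 for Nrp2 and -2.84 for Zic2. Zic2 reversed its sign, from 1.72 without RA to -1.11 with RA.

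Several signalling genes had a positive difference before RA and a negative one after it. The value was -1.92 for Fgfr2 (1.21 without RA and -0.71 with RA), -1.51 for Jag1, -1.58 for Id3, -1.10 for Lgr4, -1.04 for Ror1 and -1.49 for Sp5. The untreated differences of Ror1 (0.38) and Sp5 (0.48) were not called. It was -1.03 for Hhip, -1.17 for Lifr and -1.31 for Rdh10, whose untreated differences were small.

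Increases that differed between the states were those of Nppa (1.85), Phlda2 (1.68), Krt20 (1.60) and Rec8 (0.84). For Zfp42 the value was 2.50, since it was lower in untreated GLP 3A and not called with RA. The value was -1.35 for Zim1, -0.74 for Idi1 and -4.96 for Atp6v0c-ps2.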

How the results depend on the processing

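The count of 1401 genes became 24 with the 4 RA-treated libraries alone and 268 with a 2-fold threshold, and ran from 301 to 2394 with 1 library left out. The 963 outside chromosomes 1 and 11 became 20 and 211, and ran from 200 to 1820. The 238 genes with a called interaction became 158 at a pseudocount of 0.1, 130 with quantile scaling, 362 with robust empirical Bayes, 427 with suspect zeros as missing and 149 at 2-fold, and ran from 10 to 1129. Under the other settings these counts stayed within 1.5 times. The replicate block gave 1647, 1138 and 199. Deviations of same-numbered libraries correlated at 0.17 to 0.36, but with 2 numbers and no label of a shared batch the numbers were not taken to pair the libraries.

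Of the 126 named genes called, 34 were called in all 8 fits without 1 library and 7 with the RA-treated libraries alone, and none of the 126 changed sign under any setting. Because the 126 are genes called in these same libraries, a kept sign was nearly fixed in advance. A pseudocount of 0.1 ended 30 of these calls, no filter 25 of them and the refit without chromosomes 1 and 11 15 of 106. Uncalled genes that changed sign without 1 library ranged as follows: Alb from -2.39 to 4.76, Cyp26a1 from -0.51 to 0.28, Gata4 from -1.96 to 0.47, Gata6 from -0.42 to 0.23, Stat2 from -0.27 to 0.0806, Stra6 from -0.00306 to 0.26 and Zfp42 from -0.14 to 0.74. RPKM without counts gives no counting error, and the lower depth of replicate 2 limits low genes.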
